A study of Bos taurus with 8 samples.

Results

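The genes described are those of the proteasome, the barrel-shaped protease that degrades proteins tagged with ubiquitin, together with the chaperones that assemble it. They were chosen by name from the bovine embryo array: every probe whose gene symbol begins with PSMA, PSMB, PSMC, PSMD, PSME, PSMF or PSMG was taken, apart from the interferon-inducible catalytic subunits PSMB8 and PSMB9. The rule used names and no measured value, but it was set with earlier results of these data known. It gave 45 gene symbols and 77 probes, of 15229 symbols and 43794 probes on the array. Signal passed the background filter for 74 of these probes and 44 of these genes. The filter asked for a spot more than 2 SD above the mean of the negative controls, in at least 4 of the 8 arrays of either breed. The gene that did not pass was PSMA8, which encodes an alpha subunit known from the testis. Its probe exceeded background on 3 of 8 arrays for Holstein embryos and on 0 of 8 for Jersey embryos.

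Embryos of Holstein cows, labelled as having good cryotolerance, were set against embryos of Jersey cows, labelled as performing poorly after freezing, on 8 arrays that each carried RNA of one breed in the red dye Cy5 and of the other in the green dye Cy3. In both breeds the donors were superovulated after aspiration of follicles larger than 8 mm, with FSH to a total of 400 mg and 500 µg doses of a prostaglandin analogue, and were inseminated with pooled semen. Embryos were flushed from the uterus on day 6, and their RNA went through 2 rounds of linear amplification before labelling. The study used 4 replicates of each breed with dye swaps, and the numbers of embryos and donors behind a replicate and the sex of the embryos are not given in the sources used here.

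A proteasome has a core particle of stacked alpha and beta rings, in which some beta subunits cut proteins, and a regulatory particle that caps it. The regulatory particle consists of a base, whose ring of ATPases unfolds substrates, and a lid that holds the enzyme removing ubiquitin. Dedicated chaperones put the alpha ring and the base together, and other activators can take the place of the regulatory particle. In the early mammalian embryo the proteasome is known for clearing maternal proteins after fertilization.

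The 8 arrays formed 4 pairs of opposite dye orientation, called pairs 1 to 4, and slide 1 carried pairs 1 and 2. The labels do not name these pairs. They were read from the arrays' shared deviations, which correlated at 0.46 to 0.71 within the chosen pairs and at -0.36 to -0.02 in the other combinations. Each pair mean was 1 replicate. All differences below are log2 ratios of Holstein over Jersey, averaged over 4 pairs, with the standard error (SE) over them, so a negative value means less signal in Holstein embryos. Whether the replicates came from separate donors is not stated, so the p-values measure the spread between these samples only. In whole embryos, fewer cells of a type and less RNA per cell cannot be told apart. Each gene is represented by its brightest probe that passed the filter, and levels are log2 intensities that can be compared between samples but not between probes.

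Most markers of early embryos were above background. Of 5 inner cell mass markers, KLF4, NANOG and POU5F1 were so on every array in both breeds, as were 4 of 5 trophectoderm markers (GATA3, KRT18, KRT8 and TFAP2C). SOX2, SALL4 and CDX2 fell short on some arrays. The erythrocyte markers ALAS2 and HBA, the leukocyte marker PTPRC and the uterine marker MEP1B were also above background on every array. No cumulus, granulosa or sperm marker was. Detection alone therefore does not identify the tissue. Median foreground was 171 to 265 units in Cy5 and 230 to 316 units in Cy3. The proteasome was well measured: 42 of its 44 retained genes exceeded background on all 8 arrays in both breeds, and 0 had a spot at the scanner's ceiling. The exceptions were PSMB11, above background on 6 arrays for Holstein and 7 for Jersey, and PSMD3, on 7 for Holstein and 6 for Jersey. Taking the brightest probe of each gene favours this count. Probe by probe, 62 of 74 retained proteasome probes exceeded background on all arrays in both breeds, beside 14019 of all 32129 retained probes.

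Transcript levels of the proteasome were close between the breeds. The median difference over the 44 genes was 0.01, against 0.002 over all 32129 retained probes, with 24 genes higher in Holstein and 20 higher in Jersey. The 24 make 54.5% of the genes, where 50.7% of all retained probes were higher in Holstein. The difference was smaller than 0.25 for 35 of 44 genes, or 79.5%, beside 79.6% of all retained probes. After Benjamini-Hochberg adjustment over all probes, limma on the pair means called 0 of 44 genes, and 0% of all retained probes, whose smallest adjusted p was 0.0679. Without adjustment, 4 of 44 genes lay under 0.05, or 9.09%, where 14.0% of all retained probes did. These were PSMC6 and PSMG2, higher in Holstein (6.61% of all probes in that direction), and PSMD10 and PSMC4, higher in Jersey (7.34% of all probes).

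The precision bounds what was missed. The 95% confidence interval of the difference lay within a 2-fold change either way for 42 of 44 genes, and within a 1.5-fold change for 34. For all retained probes these shares were 93.9% and 76.2%. Standard errors ran from 0.065 for PSMB11 to 0.301 for PSME4, with a median of 0.108. A second fit used all 8 arrays singly, with the dye in the model and pairs treated as random blocks. It called 2 of 44 genes at an adjusted p under 0.05, PSMD10 and PSMC4. That is 4.55% of the genes, beside 3.77% of all probes in that fit. Both were called in the direction of Jersey, where 2.14% of all probes were called, and 0 of 44 genes in the direction of Holstein, where 1.64% were. Both calls were lost, and the count was 0, when probes had to exceed background in both channels of all 8 arrays. The PSMD10 and PSMC4 probes passed that stricter filter. Their calls were lost when the fit was rerun on the 14019 probes that passed, not through removal of their probes.

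**Figure D1:**
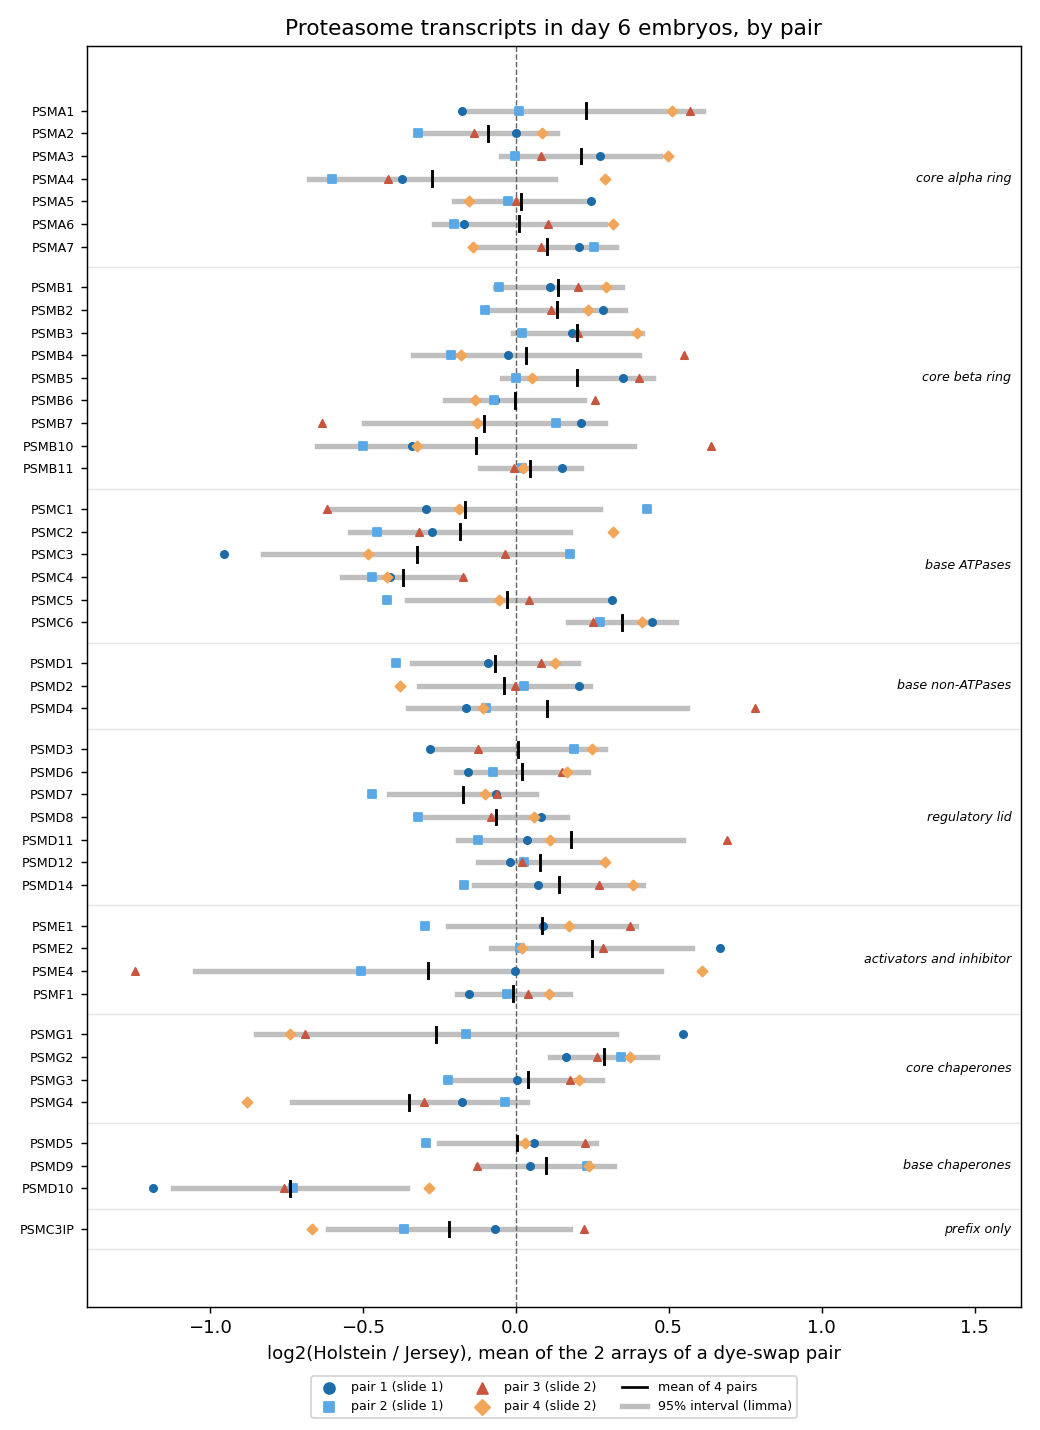
Log2 ratio of Holstein over Jersey for the 44 proteasome genes, grouped by role, with a symbol for each of the 4 pairs, a black tick for their mean and a grey bar for its 95% confidence interval. PSMD10 lies farthest to the Jersey side at -0.74, PSMC6 farthest to the Holstein side at 0.35, and the 6 ATPases of the base, apart from PSMC6, lie below 0.

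The alpha ring, whose subunits gate the entrance of the core, gave 5 genes higher in Holstein and 2 higher in Jersey among 7, with a median of 0.02 and 0 calls. PSMA1 had 0.23 ± 0.15 (SE, n = 4 pairs), and its pairs stood at -0.18, 0.012, 0.57 and 0.51. Its 2 pairs on slide 2 were thus far above the 2 on slide 1, with means of -0.08 on slide 1 and 0.54 on slide 2. A difference between slides was called for 0 of 44 genes and 0% of all probes after adjustment. Without adjustment it lay under 0.05 for 2 genes, PSMA1 and PSMG1, and for 4.08% of all probes. The median of 5 erythrocyte markers also differed by slide. It was -1.12 and -0.80 in pairs 1 and 2, and -0.016 and 0.0090 in pairs 3 and 4. The 5 did not move together. HBG, HBB and HBA averaged -4.03, -2.02 and -0.96 on slide 1, and 0.15, 0.02 and -0.24 on slide 2. ALAS2 went the other way, at 0.06 on slide 1 and -1.30 on slide 2, and SLC4A1 stood at 0.039 and 0.046. The part of these markers in the PSMA1 and PSMG1 values was not tested.

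PSMA3 stood at 0.27, -0.0029, 0.08 and 0.50 in pairs 1 to 4, a mean of 0.21 ± 0.10 (SE) that was 0.12 without pair 4. PSMA4 pointed the other way in 3 pairs, with -0.37, -0.60, -0.42 and 0.29 and a mean of -0.27 ± 0.16 (SE). That mean was -0.17 without pair 2 and -0.46 without pair 4. The ratios of the other alpha genes were close to 0, at 0.018 for PSMA5, 0.012 for PSMA6, 0.10 for PSMA7 and -0.09 for PSMA2. The PSMA2 mean was -0.016 without pair 2 and -0.15 without pair 4.

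The beta ring had 6 genes higher in Holstein and 3 higher in Jersey among 9, with a median of 0.05 and again 0 calls. It carries the active sites in PSMB5, which cuts after hydrophobic residues, PSMB6, which cuts after acidic ones, and PSMB7, which cuts after basic ones. PSMB5 was above 0 in every pair, though barely in pair 2, with 0.35, 0.00082, 0.40 and 0.05, and averaged 0.20 ± 0.10 (SE), or 0.13 without pair 3. PSMB6 averaged -0.0036 ± 0.089 (SE). PSMB7 averaged -0.10 ± 0.16 (SE), with 0.21 and 0.13 in pairs 1 and 2 and -0.63 and -0.13 in pairs 3 and 4.

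Of the structural beta subunits, PSMB3 was higher in Holstein in all 4 pairs, at 0.18, 0.02, 0.20 and 0.40, for a mean of 0.20 ± 0.08 (SE) and an adjusted p of 0.378 with limma. PSMB1 averaged 0.14, or 0.09 without pair 4, PSMB2 0.13 and PSMB4 0.03. PSMB10, the interferon-inducible subunit that can replace PSMB7, had -0.34, -0.50, 0.64 and -0.32 in pairs 1 to 4. Only pair 3 of these 4 was on the Holstein side. PSMB11, a catalytic subunit known from thymic epithelium, was dim and averaged 0.05 ± 0.065 (SE), or 0.013 without pair 1.

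The 6 ATPases of the base gave 1 gene higher in Holstein and 5 higher in Jersey. Their median of -0.17 was the lowest among the role classes of the particle. By pair the median was -0.28, -0.12, -0.10 and -0.12, below 0 in each of the 4 pairs, where the median of all retained probes stayed between -0.01 and 0.008. With the arrays centred on their median in place of loess it was -0.07, and in the authors' deposited table, with the sign turned to Holstein over Jersey, it was -0.15. Those settings left 4 of the 6 genes higher in Jersey. These medians carry no test.

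PSMC4 was the ATPase below 0 in all 4 pairs. Its level was 12.18, 12.13, 12.31 and 11.87 in Holstein embryos of pairs 1 to 4, and 12.59, 12.60, 12.48 and 12.29 in Jersey embryos. Within each pair the Holstein level was the lower, while the breeds overlapped across pairs, since the Holstein level of pair 3 exceeded the Jersey level of pair 4. The ratio was -0.37 ± 0.08 (SE, n = 4 pairs), with a 95% confidence interval of -0.57 to -0.17, or a level 1.29-fold higher in Jersey. The adjusted p was 0.171 with limma on pair means and 0.0362 in the block fit. This probe passed the stricter background filter, but its call was lost when the fit was rerun on the probes that passed.

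All 8 arrays gave PSMC4 a ratio below 0, from -0.56 to -0.16, and the dye orientations gave the same mean: the 4 arrays with Holstein in Cy5 averaged -0.37 and the 4 with Jersey in Cy5 averaged -0.37. The ratio was in the same direction on all 8 arrays for 2 of 44 genes, PSMC4 and PSMG2, or 4.55%, where 5.03% of all probes were. A dimmer PSMC4 probe, above background on 4 of 8 arrays for each breed, gave -0.05.

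PSMC6 was the ATPase on the other side. Its level was 12.01, 12.46, 12.13 and 12.26 in Holstein embryos and 11.56, 12.19, 11.88 and 11.85 in Jersey embryos, and the ratio was above 0 in 4 of 4 pairs. The ratio depended on the dye: the arrays with Holstein in Cy5 averaged 0.10 and those with Jersey in Cy5 averaged 0.60, with an adjusted p of 0.055 for the dye. As a result, 6 of 8 arrays lay above 0. The mean was 0.35 with a confidence interval of 0.17 to 0.52, and a further PSMC6 probe gave 0.09.

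The remaining ATPases were more variable. PSMC3 averaged -0.32 ± 0.20 (SE), of which pair 1 contributed -0.95, and a further PSMC3 probe gave 0.14, so its direction was not settled. PSMC1 averaged -0.17 and PSMC2 -0.18, each with 1 of 4 pairs on the Holstein side. PSMC5 was close to 0, at -0.03.

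**Figure D2:**
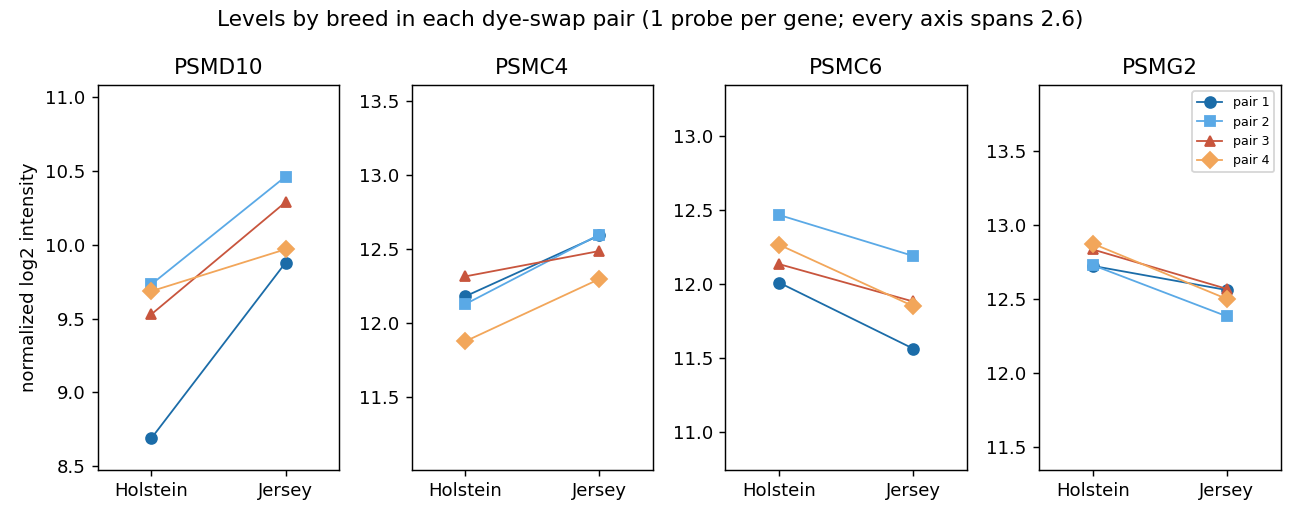
Log2 intensity of PSMD10, PSMC4, PSMC6 and PSMG2 in Holstein embryos (left in each panel) and Jersey embryos (right), with a line joining the breeds within each of the 4 pairs. All 4 lines run the same way in every panel, PSMD10 and PSMC4 being lower in Holstein and PSMC6 and PSMG2 higher in Holstein.

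Of the base subunits without ATPase activity, 1 of 3 had more signal in Holstein and 2 had more in Jersey, and the median ratio was -0.04. PSMD1 averaged -0.07 ± 0.11 (SE), with -0.09, -0.39, 0.08 and 0.13 in pairs 1 to 4, and it was 0.04 without pair 2. PSMD2, a scaffold that docks ubiquitin shuttles, averaged -0.04 on its brightest probe. A further PSMD2 probe gave -0.20 ± 0.06 (SE), below 0 in all 4 pairs, and the third gave -0.010. PSMD4, a receptor for ubiquitin chains, had -0.16, -0.10, 0.78 and -0.11, so that pair 3 alone put its mean at 0.10.

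The lid gave 5 genes higher in Holstein and 2 higher in Jersey among 7, with a median of 0.02 and 0 calls. PSMD14, the enzyme that removes ubiquitin chains from substrates, averaged 0.14 ± 0.11 (SE). PSMD7, which pairs with PSMD14 in the lid, was below 0 in all 4 pairs, at -0.06, -0.47, -0.06 and -0.10. Its mean was -0.17 ± 0.10 (SE), or -0.07 without pair 2. PSMD11 averaged 0.18, with 0.69 in pair 3. PSMD3, PSMD6, PSMD8 and PSMD12 ranged from -0.06 to 0.08, and PSMD12, the highest of these, was 0.0097 without pair 4.

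The core and regulatory particles differed little. The 16 core genes had a median of 0.04, with 11 higher in Holstein and 5 higher in Jersey, and the 16 genes of the regulatory particle had a median of -0.03, with 7 higher in Holstein and 9 higher in Jersey. By pair, the core median was 0.13, -0.04, 0.11 and 0.07, and that of the regulatory particle was -0.08, -0.11, 0.010 and 0.09. The core stood above the regulatory particle in pairs 1, 2 and 3 and below it in pair 4. The core median was above 0 under every scaling run, while the side of 0 of the regulatory median depended on the scaling. Centring the arrays on their median, which leaves the trend with brightness in place, put the core at 0.18 and the regulatory particle at 0.11, with 14 of 16 and 10 of 16 genes higher in Holstein. The median of all retained probes was 0.002 with loess and -0.0006 with median centring. In the authors' deposited table, with the sign turned to Holstein over Jersey, the 2 medians were 0.07 and -0.0044.

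**Figure D3:**
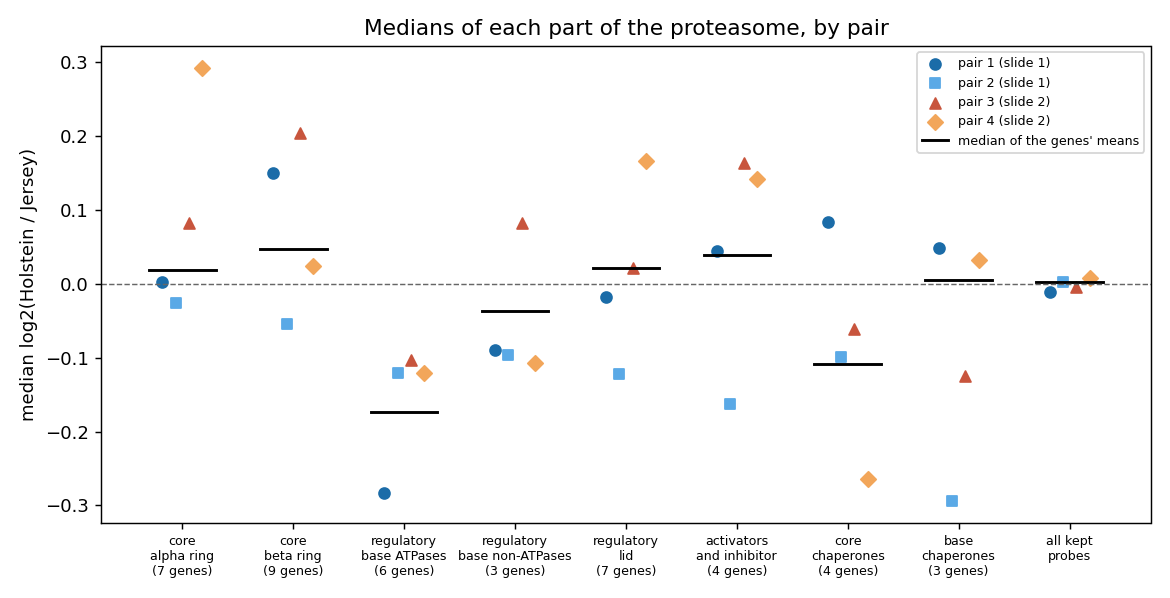
Median log2 ratio of Holstein over Jersey over the genes of each role class, with a symbol for each of the 4 pairs and a bar for the median of the gene means; the last column holds all retained probes. The ATPases of the base are below 0 in all 4 pairs, and each of the other classes has pairs on both sides of 0.

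Among proteins that cap the core in place of the regulatory particle, PSME1 and PSME2 form one ring together. Their ratios were 0.09 ± 0.12 and 0.25 ± 0.13 (SE). PSME2 owed its mean to pair 1, with 0.67, 0.015, 0.29 and 0.02 in pairs 1 to 4 and 0.11 without pair 1. PSME4, a large activator known from spermatogenesis and DNA repair, varied most of all 44 genes. Its pairs stood at -0.0030, -0.51, -1.24 and 0.61, and the confidence interval of its mean, -1.05 to 0.48, reaches past a 2-fold change. PSMF1, an inhibitor of the core, was at -0.0078 ± 0.073 (SE).

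PSMD10 had the largest difference of the 44 genes. It encodes gankyrin, a chaperone of the base that binds the ATPase PSMC4, and it lies on the X chromosome. Its level was 8.69, 9.73, 9.53 and 9.68 in Holstein embryos of pairs 1 to 4, and 9.88, 10.46, 10.29 and 9.97 in Jersey embryos. The lowest Jersey level was above the highest Holstein level, so the breeds did not overlap. The share of all retained probes without overlap was not computed, so whether this is unusual is not known. The ratios of the pairs were -1.19, -0.73, -0.76 and -0.28, a mean of -0.74 ± 0.15 (SE) with a confidence interval of -1.12 to -0.36, or 1.67-fold higher in Jersey. The adjusted p was 0.166 with limma on pair means and 0.0369 in the block fit. This probe too passed the stricter background filter, and its call was likewise lost in the rerun fit.

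On single arrays PSMD10 was below 0 on 7 of 8, the exception being an array of pair 4 at 0.27. The arrays with Holstein in Cy5 averaged -0.47 and those with Jersey in Cy5 averaged -1.01. The array has 1 PSMD10 probe, so no other probe checks it.

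PSMD10 was the only member of the proteasome set on the X chromosome in RefSeq's ARS-UCD2.0 annotation, in which all 45 symbols were found. The X chromosome as a whole leaned the same way. Of 546 retained X-linked probes other than XIST, 73.8% had more signal in Jersey, the median ratio was -0.15, and 10.4% stood lower than PSMD10. The block fit called 90 of the 546 in the direction of Jersey, as it called PSMD10. Without adjustment, limma on pair means put 185 of the 546 under its threshold in that direction, as it did PSMD10. XIST, the RNA that coats the inactive X chromosome, stood at -3.22, -3.43, -3.52 and -1.56 in pairs 1 to 4. Pair 4 was thus the smallest difference for XIST and for PSMD10 alike. The part of the X chromosome in the PSMD10 result was not tested.

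The other 2 chaperones of the base, PSMD5 and PSMD9, had ratios of 0.0055 ± 0.101 and 0.10 ± 0.09 (SE). Neither was called, and their intervals of -0.25 to 0.26 and -0.12 to 0.32 do not reach the mean of PSMD10.

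The chaperones of the alpha ring work as 2 dimers, PSMG1 with PSMG2 and PSMG3 with PSMG4. PSMG2 was higher in Holstein in every pair and on all 8 arrays. Its level was 12.73, 12.73, 12.84 and 12.88 in Holstein embryos and 12.56, 12.38, 12.57 and 12.50 in Jersey embryos. Each Holstein level thus exceeded each Jersey level, though the share of all retained probes without overlap was not computed. The mean ratio was 0.29 ± 0.07 (SE, n = 4 pairs), with a confidence interval of 0.11 to 0.46, or 1.22-fold higher in Holstein. The adjusted p was 0.201 with limma on pair means and 0.0755 in the block fit. A further PSMG2 probe gave 0.15, with -0.29 in pair 1 and values above 0 in the other pairs.

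PSMG1 did not follow its partner PSMG2. Its pairs stood at 0.55, -0.16, -0.69 and -0.74, a mean of -0.26 ± 0.23 (SE). In the pair of PSMG3 and PSMG4, PSMG3 averaged 0.04 ± 0.09 (SE). PSMG4 had -0.18, -0.04, -0.30 and -0.88, a mean of -0.35 ± 0.15 (SE) that was -0.17 without pair 4. A further PSMG4 probe gave 0.07, which leaves its direction unsettled.

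PSMC3IP shares the prefix but is a factor of meiotic recombination, not a proteasome subunit. It stood at -0.07, -0.36, 0.22 and -0.66, a mean of -0.22 ± 0.16 (SE). That mean was -0.37 without pair 3 and -0.07 without pair 4.

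Several of the differences were large within a pair and went opposite ways between pairs, and separate probes repeated them for some genes but not for others. Of the 44 genes, 9 had the same direction in all 4 pairs, or 20.5%, where 22.0% of all retained probes did. Of the 9, 5 were higher in Holstein (10.5% of all probes) and 4 higher in Jersey (11.5%). PSMG1 has 4 probes, and each of them was above 0 in pair 1, at 0.20 to 0.55, and below 0 in pairs 2, 3 and 4. PSME4 has 3 probes, and pair 3 was the lowest in each, at -1.24, -1.47 and -0.56. The 2 PSMB10 probes read 0.64 and 0.63 in pair 3, and were below 0 in the other pairs. The 3 PSMB4 probes read 0.55, 0.36 and 0.32 in pair 3, their highest value. Other genes' probes did not repeat each other. In pair 1 the 2 PSMC3 probes read -0.95 and 0.36. In pair 3 the brighter and dimmer probes read 0.78 and 0.17 for PSMD4, and 0.69 and 0.02 for PSMD11.

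**Figure D4:**
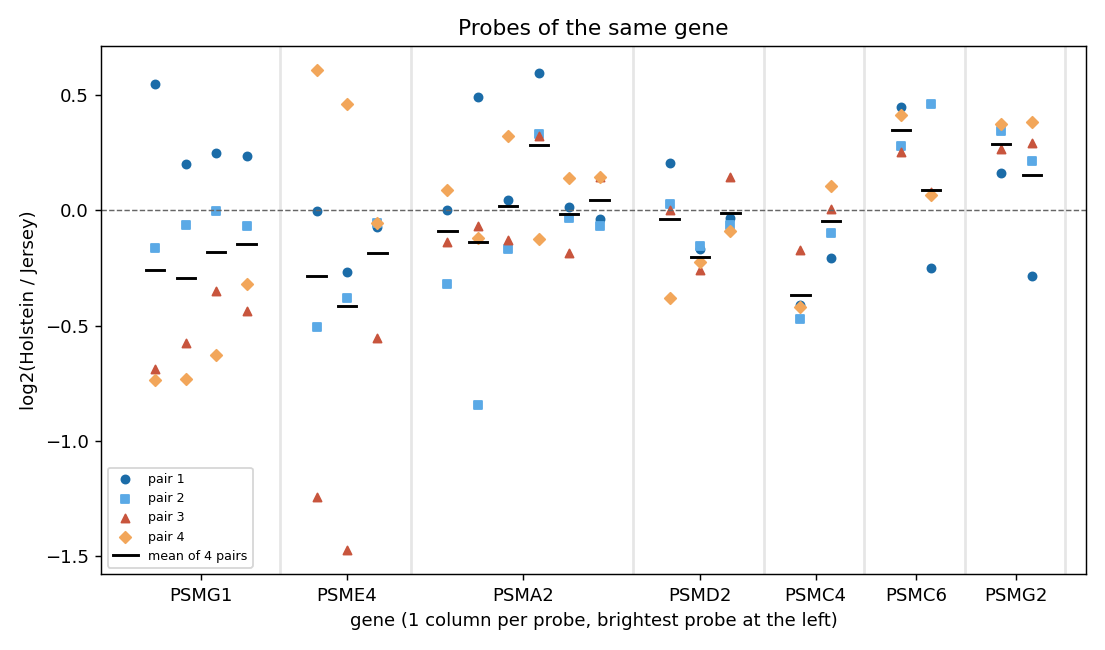
Log2 ratio of Holstein over Jersey for each retained probe of PSMG1, PSME4, PSMA2, PSMD2, PSMC4, PSMC6 and PSMG2, with a column for each probe, a symbol for each of the 4 pairs and a bar for their mean. The 4 PSMG1 probes all have pair 1 above 0 and pairs 3 and 4 below it, while the bar of the dimmer PSMC4 probe, at -0.05, lies well above that of the brighter one at -0.37.

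In all, 19 genes had several retained probes, and in 7 of them the probes' means lay on both sides of 0. PSMA2 had the most, with 6 probes between -0.14 and 0.28. PSMA2's probes therefore do not give it one direction.

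Pair 3 held the widest spread of the proteasome genes. There, 10 of 44 genes were beyond 0.5 on either side, or 22.7%, against 13.9% of all retained probes. PSMA1, PSMB4, PSMB10, PSMD4 and PSMD11 were on the Holstein side, and PSMB7, PSMC1, PSMD10, PSME4 and PSMG1 on the Jersey side. Pairs 1, 2 and 4 had 4, 3 and 5 such genes. In pair 2 the share was 6.82%, where 17.2% of all retained probes were beyond 0.5. Over all 44 genes the median SD among the 4 pairs was 0.24, against 0.19 over all retained probes.

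Some markers of cell layers also differed by pair, and others leaned to 1 breed in every pair. Of 3 primitive endoderm markers, GATA4 averaged 0.50 and PDGFRA 0.77, each above 0 in all 4 pairs. Their adjusted p was 0.165 and 0.091 with limma on pair means, and 0.033 and 0.011 in the block fit. SOX17, above background on 5 arrays for Holstein and 4 for Jersey, averaged -0.03. The part of these 3 in the proteasome ratios was not tested. Of 4 cumulus and granulosa markers, AMH and FSHR did not pass the filter. CYP19A1 averaged 0.54 and INHBA 0.79, each above 0 on all 8 arrays, and their part was not tested either. The median of the 5 trophectoderm markers was -0.07, -0.19, 0.16 and -0.21 in pairs 1 to 4, with KRT18 at -0.67, -0.58, 0.23 and -0.74. KRT8 was at the scanner's ceiling on 6 of 8 arrays, which limits its ratios. It was likewise above 0 in pair 3 only, as were the brightest probes of PSMB10 and PSMD4. The other 3 trophectoderm markers did not share this order: CDX2 stood at 0.05, 0.66, 0.23 and -0.11, TFAP2C was below 0 in pair 3 only, and GATA3 was below 0 in all 4 pairs. The part of these markers in the PSMB10 and PSMD4 values was not tested. The 4 leukocyte markers stood in pair 3 at -0.52 for CD3E, -0.26 for PTPRC, -0.08 for CD14 and -0.02 for LYZ1. Of the 4, 1 was above background on every array in both breeds, and their part in the PSMB10 value was not tested.

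The dye moved some members more than the breed did. The dye effect was called for 5 of 44 genes at an adjusted p under 0.05, or 11.4%, beside 27.2% of all probes. Without adjustment it lay under 0.05 for 9 genes and for 40.4% of all probes. PSMB1 averaged 0.52 on the arrays with Holstein in Cy5 and -0.24 on those with Jersey in Cy5. The same 2 means were 0.27 and -0.45 for PSMA2, 0.47 and -0.31 for PSMD12, and 0.26 and -0.27 for PSMB6. PSMB11 was the reverse, at -0.18 and 0.28. In each of these 5 genes the sign of a single orientation was the sign of the dye, and the mean over both orientations was between -0.09 and 0.14. In 23 of 44 genes the orientations gave opposite signs, as in 58.8% of all probes.

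**Figure D5:**
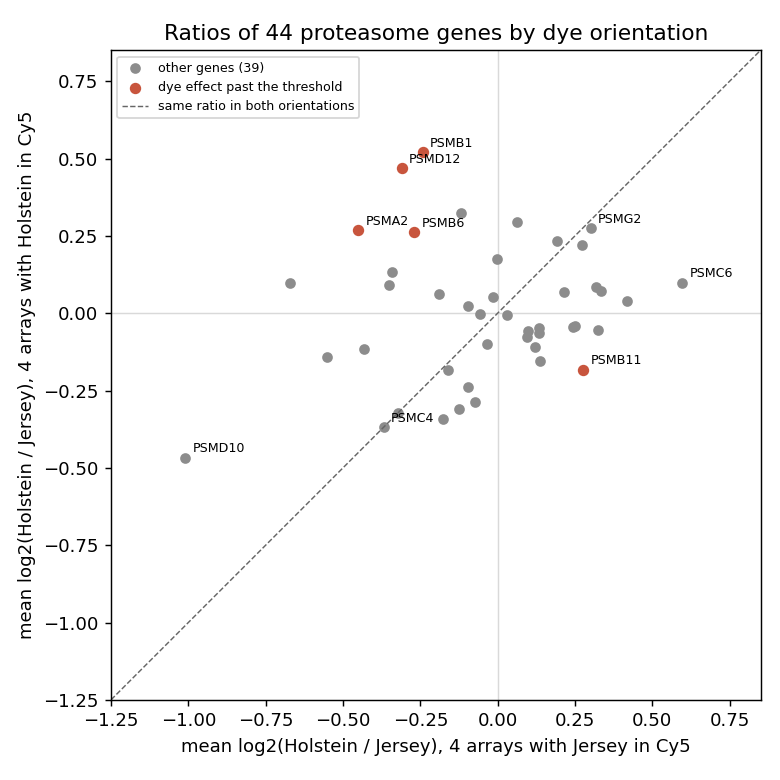
Mean log2 ratio of Holstein over Jersey on the 4 arrays with Holstein in Cy5 (vertical axis) against that on the 4 arrays with Jersey in Cy5 (horizontal axis) for the 44 proteasome genes. PSMC4 and PSMG2 lie on the diagonal, where the dye makes no difference, while PSMB1, PSMD12, PSMA2 and PSMB6 lie above it and PSMB11 and PSMC6 below it.

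Genes that work with the proteasome were taken from 4 lists of 40 symbols in all, of which 29 were on the array and all 29 passed the filter. Holstein was higher for 17 and Jersey for 12, and the median ratio was 0.01. limma on pair means called 0 of 29 after adjustment. Without adjustment, 3 lay under 0.05 in the direction of Holstein, where 6.61% of all retained probes did, and 2 in that of Jersey, where 7.34% did.

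Among proteins that act at the particle, 8 of 12 had more signal in Holstein, and the median ratio was 0.13. POMP, the chaperone that matures the core particle, stood at 0.62, -0.08, 0.40 and 0.58, a mean of 0.38 ± 0.14 (SE). Its mean was 0.74 on the arrays with Holstein in Cy5 and 0.015 on those with Jersey in Cy5, with an adjusted p of 0.029 for the dye. UCHL5, a deubiquitinase of the base, averaged 0.22 ± 0.11 (SE), or 0.13 without pair 4.

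Of the genes that control proteasome transcription, 4 of 7 had more signal in Holstein, and the median ratio was 0.06. NGLY1, the enzyme that removes glycans from the factor NFE2L1 so that it can drive proteasome genes, was above 0 in all 4 pairs, at 0.38, 0.49, 0.71 and 0.44. Its mean was 0.50 ± 0.08 (SE), with an adjusted p of 0.122 on pair means and 0.063 in the block fit. NFE2L1 itself averaged -0.22 ± 0.12 (SE), with 1 of 4 pairs above 0. Its mean was 0.13 on the arrays with Holstein in Cy5 and -0.58 on those with Jersey in Cy5. NFE2L2, a stress-response factor that also drives some proteasome genes, averaged 0.45 ± 0.12 (SE). The NFE2L2 mean was 0.90 on the arrays with Holstein in Cy5 and -0.012 on those with Jersey in Cy5. The adjusted p for the dye was 0.0125 for NFE2L1 and 0.023 for NFE2L2.

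Shuttle receptors and the unfoldase were even, with 3 of 6 higher in Holstein and a median of -0.0013. UBQLN2, an X-linked shuttle receptor, averaged -0.77 ± 0.26 (SE), with 0.05 in pair 2. RAD23B, also a shuttle receptor, averaged 0.27, or 0.11 without pair 4.

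Ubiquitin genes and the enzymes that activate ubiquitin gave 2 of 4 genes higher in Holstein, with a median of 0.03. UBA1, the X-linked main activating enzyme of ubiquitin, had pair values of -0.97, -1.58, -1.20 and -0.57, a mean of -1.08 ± 0.17 (SE). It was called in the block fit at an adjusted p of 0.0033, the only one of the 29 so called. Over all probes in that fit 3.77% were called, and 2.14% in the direction of Jersey. Of the 546 X-linked probes other than XIST, 90 were called in that direction. With limma on pair means the adjusted p of UBA1 was 0.120. UBA1 averaged -0.64 on the arrays with Holstein in Cy5 and -1.52 on those with Jersey in Cy5. Its adjusted p for the dye was 0.010. UBA6, the other activating enzyme, averaged 0.14, or 0.08 without pair 1.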

How the data were processed

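RNA of day 6 embryos of Holstein and Jersey cows was measured on 8 arrays with both dyes. Per the file headers, the deposited scanner files hold the foreground and background intensity of each spot, and the authors' ignore flags and other spot annotation were read as deposited. The authors' deposited value table holds a log2 ratio, whose direction was found to be Jersey over Holstein on all 8 arrays by correlation with the scanner values (-0.970 to -0.983). Its column medians are -0.036 to 0.025, and how it was centred is not given in the sources used here. Gene names came from the platform annotation and chromosomes from RefSeq's ARS-UCD2.0 table.

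Background was corrected with normexp (offset 50) and each array was normalised by loess in limma 3.58.1 under R 4.3.3, with control and ignored spots at weight 0. Levels are the channels' log2 intensities after Aquantile scaling. Probes had to exceed the mean plus 2 SD of 153 negative control spots on at least 4 of 8 arrays in either breed, which kept 32129. Ratios of the 2 arrays of a pair were averaged and 4 pair means were tested against 0. The pairs were the matching, of 24, with the highest sum of residual correlations. The block fit used 8 arrays, a dye term and duplicateCorrelation (consensus 0.31). Code was tested on simulated data. Alternatives changed the background correction, scaling, filter, pairing, slide term, probe choice and value table, and left out each pair. The number of arrays limits the precision. Members and lists were chosen with earlier results of these data known. Named genes were the 5 with the smallest p in each direction, the smallest in each class, those called in any test and X-linked members, and for partner lists the 2 smallest p; genes named beyond these, to cover each role or for their spread between pairs, were chosen after their values were seen.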

Additional observations from a re-analysis of the deposited data

Results flagged for a closer look

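Dixon's test on the 4 pair values was run for 77 items and marked 6 in which 1 pair stood apart. Chance marks about 1 in 20. For PSMB10 the pair was pair 3, at 0.638 against -0.50 to -0.32 in the other pairs. For PSMD4 it was pair 3, at 0.781 against -0.16 to -0.10. For PSMB6 it was pair 3, at 0.258 against -0.13 to -0.07. For ADRM1, the ubiquitin receptor at the top of the base, it was pair 3, at 0.094 against -0.21 to -0.17. For PSMD12, a lid subunit, it was pair 4, at 0.292 against -0.018 to 0.026. For PSMD7, also of the lid, it was pair 2, at -0.468 against -0.10 to -0.06. Pair 3 was thus the pair that stood apart in 4 of the 6.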

How the results depend on the processing

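The adjusted count of proteasome genes was 0 on pair means under each background, filter, scaling, slide and left-out-pair alternative run (0 to 0 without 1 pair), as was the partner count (0 to 0). With the pair as a random replicate block the adjusted counts were 2 proteasome genes and 1 partner gene, where 3.77% of all probes were called. With no replicate block they were 3 and 2, and the unadjusted count higher in Holstein was 5. The fit with no block treats the 2 arrays of a pair as separate replicates. Shares of all probes are not given with no block, with median centring, in the deposited table or without 1 pair. Changes in those counts are therefore not read as results about the proteasome. The block count was 0 when probes had to exceed background in both channels of all 8 arrays. Median centring gave unadjusted counts of 6 higher in Holstein and 1 higher in Jersey, medians of 0.18 for the core and 0.11 for the regulatory particle, and 8 dye calls. The deposited table gave 5 unadjusted genes higher in Holstein. On slide 2 alone the core median was 0.17. Leaving out 1 pair gave unadjusted counts of 2 to 3 higher in Holstein and 3 to 4 higher in Jersey, 4 without pair 2 or pair 4, with core medians of 0.06 to 0.08 and regulatory medians of -0.09 to 0.03. Of 416 alternative values for 26 named genes, 10 were counted as changed in sign, in 3 genes with ratios near 0. That count did not cover sign changes in the values of 1 slide alone. On slide 2 alone PSMD1 stood at 0.11, PSMB6 at 0.06 and UBA6 at -0.0083, each opposite in sign to its mean over 4 pairs. Aquantile scaling and the fits that changed only the error model or added a slide term keep the ratio, so they could not change a sign. PSMB6 turned to 1.81e-05 with offset 16, 0.16 with median centring, 0.018, 0.019 and 0.039 without pairs 1, 2 and 4 (-0.091 to 0.039 over the 4 left-out pairs), and 0.051 in the deposited table. PSMD1 turned to 0.074 with median centring and 0.041 without pair 2 (-0.13 to 0.041 over the 4), and PSMA2 to 0.076 with median centring and 0.017 as the mean of its probes. The cause was not tested. The adjusted p of PSMD10 on pair means ranged from 0.11 without pair 4 to 0.53 with a robust trended variance.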
